A study of Mus musculus with 18 samples.

Results

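The genes carried by the mitochondrial chromosome were followed in single cells of the postnatal mouse heart. Members were all gene columns whose symbol starts with mt-, and each of them lay on chromosome M of the annotation. They were 35 of the 35843 gene columns in the matrices, out of 37 genes annotated on chromosome M: 13 protein-coding genes, 2 ribosomal RNA (rRNA) genes and 20 of the 22 transfer RNA (tRNA) genes. The tRNA genes mt-Ty and mt-Td had no column on any chip, and a single chip held 31 to 34 of the members.

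The study asked how heart cells change state after birth, using poly(A) RNA of single cells captured on ICELL8 nanowell chips. Each of the 18 samples was 1 chip. All animals carried the strain label Myh6/Esr1-Tomato, a tamoxifen-dependent Cre driven by the cardiomyocyte gene Myh6 together with a tdTomato reporter. The 12 chips without lentivirus are called wild-type here, although their animals carried these transgenes. The paper states that mice of this line were treated with tamoxifen soon after birth for lineage tracing. These chips held cells labelled ventricular at postnatal day 4 (P4, 2 chips), day 7 (P7, 2 chips), day 14 (P14, 2 chips) and day 28 (P28, 6 chips). A further 6 P28 chips mixed cells of hearts that had received lentivirus at 3 points of the left ventricle on day 1. The virus carried a hairpin against Jun (shJun) or a non-targeting hairpin (shNT). The mixed chips carried no hairpin in the sample labels, so hairpin and animal of each cell came from the well reports: shJun_1 and shNT_1 shared chips 1, 2 and 5, and shJun_2 and shNT_2 shared chips 3, 4 and 6. Where the well reports named a fraction, cells were loaded as a cardiomyocyte (CM) or a non-cardiomyocyte (NCM) fraction obtained by centrifugation. The P4 and P7 chips carried no fraction name. Of the P28 chips, the well reports named replicates 1 and 5 CM and replicates 2 and 6 NCM, while replicates 3 and 4 carried no such name. On the P14 chips both names occurred among the wells. The well-report headers of P28 replicates 5 and 6 carried a tag that set them apart from the other P28 chips. P4 and P7 hearts were digested in pieces with a kit, whereas P14 and P28 hearts were perfused, so age and digestion cannot be told apart. Among the wild-type chips, fraction names occurred only at P14 and P28, so age cannot be told apart from loading by fraction either. The same 2 animal names stood on both chips of P4, on both of P7, on P28 replicates 1 and 2 and, as another pair, on replicates 5 and 6. P-values therefore measured the spread between chips or, for the hairpins, between 2 animals a group.

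The mitochondrial chromosome is copied and transcribed inside the organelle as long RNAs from each strand, which are cut mostly at the tRNAs lying between the other genes. Its protein-coding genes all supply subunits of the respiratory chain: complex I, which takes electrons from NADH, complex III, which passes them to cytochrome c, complex IV, which hands them to oxygen, and complex V, the ATP synthase. All other subunits are made from nuclear genes. The rRNAs form the organelle's own ribosome. The heart is rich in mitochondria, and cardiomyocytes shift towards oxidative metabolism after birth.

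A total of 19996 cells passed the filters, with 1137605660 unique molecular identifiers (UMIs, each standing for 1 captured RNA molecule), of which 528802307 or 46.5% fell on the members. The total per chip ran from 10826074 UMIs (P28 replicate 5) to 129747442 (mixed chip 4). Cells were clustered without the members and without nuclear genes that resemble them, and a cluster was called, for example, CM-like where its marker genes led it. Clusters left without a name held up to 29.1% of the cells of a wild-type chip (P7 replicate 2) and 35.7% of mixed chip 3. On P7 they included the largest endothelium-led cluster (607 cells, Btnl9 and Gpihbp1 among its leading genes), so Endothelial-like at P7 meant 2 smaller clusters. That of 150 cells was led by Ncapg, Pbk and Aurka, genes of dividing cells. That of 63 cells was led by Npr3 and Cytl1, and its highest score was for the Schwann markers (0.42). At P4 the largest Endothelial-like cluster (368 cells) was led by Btnl9, so the class differed in make-up between P4 and P7. The part of this in the comparisons was not tested. Of 5070 well barcodes, 4902 occurred on more than 1 chip, as the chips share 1 barcode set. No pair of chips of a group agreed within sampling noise (lowest chi-square per degree of freedom 97.1 over 33 pairs).

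Because the reads start from poly(A), the 3′ end of each gene matters for whether its RNA was captured and to which copy of the sequence a read could be assigned. The last 30 bases of 6 protein-coding members are therefore printed from the GENCODE vM21 transcripts, on the plus strand of chromosome M of mm10 (GRCm38), with the letters of the stop codon that the gene itself encodes in capitals. In mt-Nd4, mt-Cytb and mt-Co3 this is a lone T, which in mitochondria becomes a stop codon only through the added poly(A) tail.
mt-Nd1: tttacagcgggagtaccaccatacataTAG
mt-Nd4: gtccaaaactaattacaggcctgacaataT
mt-Cytb: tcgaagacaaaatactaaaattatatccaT
mt-Co1: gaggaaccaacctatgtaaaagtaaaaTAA
mt-Co2: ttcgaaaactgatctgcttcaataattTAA
mt-Co3: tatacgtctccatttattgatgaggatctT

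The first 3 of these ends lie at chrM:3678-3707, chrM:11515-11544 and chrM:15259-15288. The ends of mt-Co1 (chrM:6843-6872), mt-Co2 (chrM:7667-7696) and mt-Co3 (chrM:9361-9390) lie in a stretch that the nuclear genome holds a second time. Gene models at chr1:24611535-24616197, on the minus strand, matched chrM:6390-11042 with at least 99% identity. The 3′ ends of 7 protein-coding members lie inside this stretch (mt-Co1, mt-Co2, mt-Atp8, mt-Atp6, mt-Co3, mt-Nd3 and mt-Nd4l), and 11 members lie in it whole. How reads that match both places were counted is not given in the sources used here, so the counts of these members were uncertain.

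Among the members the rRNAs took 51.3% of the mitochondrial UMIs of all passing cells. mt-Rnr2, the RNA of the large ribosomal subunit, held 38.7% (26.5% to 53.7% by chip) and mt-Rnr1, that of the small subunit, held 12.6% (6.52% to 18.4%). Per kilobase of gene, mt-Rnr2 reached 3.14 times and mt-Rnr1 1.70 times the level of mt-Cytb, which served as the reference for levels per length.

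The 7 complex I genes together held 35.9% of mitochondrial UMIs. Subunit gene mt-Nd1 led with 14.7% (5.43% to 27.7% by chip) and 1.97 times mt-Cytb per kilobase, and mt-Nd4 followed with 10.5% (6.45% to 14.8%) and 0.976 times. mt-Nd2 held 5.29%, or 0.654 times mt-Cytb per kilobase. The long mt-Nd5 held 3.02% and 0.213 times. mt-Nd6, the one protein-coding member read from the opposite strand, held 1.39% and 0.345 times. mt-Nd6 and mt-Nd5 run towards each other and overlap by 14 bases, as their last 30 bases show (chrM:13536-13565 on the plus strand and chrM:13552-13581 on the minus strand, stop codons in capitals).
mt-Nd5: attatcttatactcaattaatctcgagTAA
mt-Nd6: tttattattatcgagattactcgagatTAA

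The strand setting of the counting is not given in the sources used here, so reads of the 2 strands cannot be told apart. Inside the copied stretch, mt-Nd4l held 0.723% and mt-Nd3 0.251%.

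mt-Cytb, the cytochrome b gene and the only complex III subunit encoded in the organelle, held 8.91% (2.72% to 12.5% by chip). Complex IV was represented almost only by mt-Co1, its catalytic subunit, with 2.88% (1.62% to 4.93%) and 0.239 times mt-Cytb per kilobase. The other complex IV genes were far lower: mt-Co3 held 0.0364% with UMIs in 78.8% of cells, and mt-Co2 had 460 UMIs in all, in 2.12% of cells. Both complex V genes were as low, with 1418 UMIs for mt-Atp6 and 224 for mt-Atp8. As the plot of UMIs per kilobase shows, the 8 rRNA and protein-coding genes that end outside the copied stretch ranged from 8765750 to 129364000 UMIs per kilobase (median 40717100), and the 7 that end inside it from 673 to 12872600 (median 245249).

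**Figure D1:**
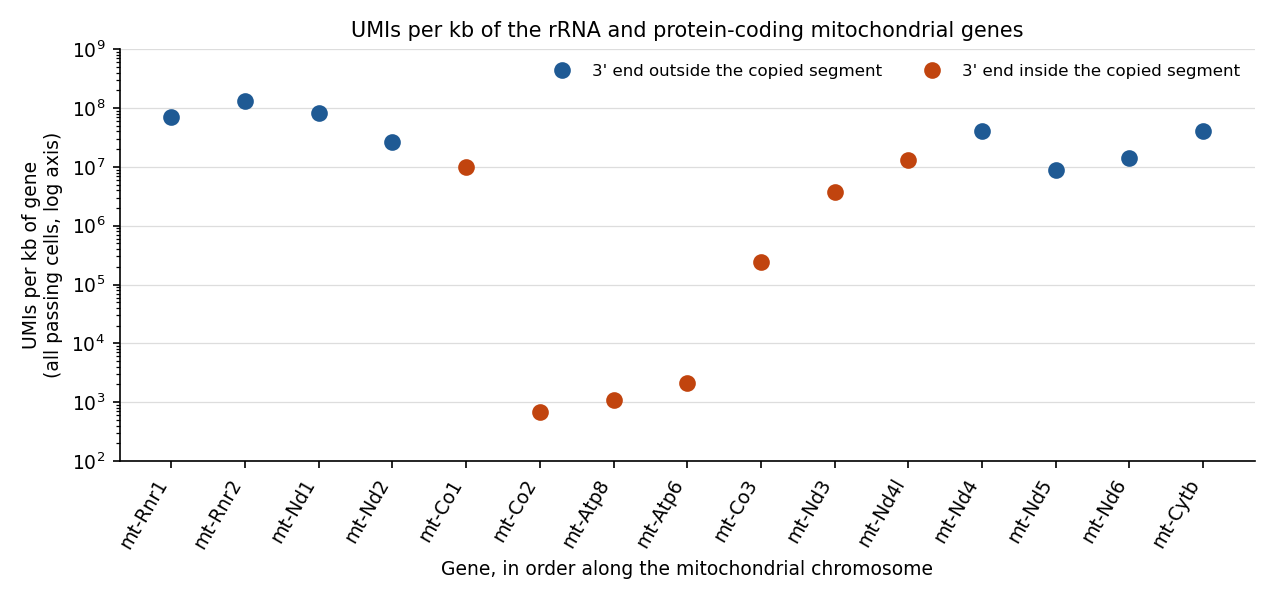
UMIs per kilobase of gene, summed over all passing cells (log axis), for the 2 rRNA and 13 protein-coding members in chromosome order. Orange points are genes whose 3′ end lies inside the stretch copied on chromosome 1; mt-Co2, mt-Atp8 and mt-Atp6 sit several powers of 10 below the genes on both sides of the stretch.

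Nuclear gene models that resemble members also carried UMIs. Of 29 such models (at least 80% identity over 100 bases), 11 had UMIs, together 5.67% of the mitochondrial count. Gm13340 at chr2:22588103-22589647 on the minus strand, 97.6% identical to mt-Co1, held UMIs equal to 3.32% of the mitochondrial count, more than mt-Co1 itself. Gm13341 at chr2:22587291-22587962 on the minus strand, 95.9% identical to mt-Co2, held 1.73%, against 460 UMIs on mt-Co2. Of the 7 models in the chromosome 1 stretch, 6 had no UMI and Gm10222, identical to mt-Nd4l over 294 bases, had 3686. The share of look-alike UMIs relative to the mitochondrial count ran from 3.30% (P7 replicate 1) to 10.2% (P14 replicate 2) by chip. These nuclear models were left out of the member counts.

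The 22 tRNA genes made 0.972% of mitochondrial UMIs, and 1 of them, mt-Tq for glutamine, made 0.681% alone. Its 71 bases lie on the minus strand at chrM:3772-3842, next to the 3′ end of mt-Nd1 across the isoleucine tRNA mt-Ti, and are shown because the gene reached 1.23 times mt-Cytb per kilobase, the highest level of any tRNA.
mt-Tq: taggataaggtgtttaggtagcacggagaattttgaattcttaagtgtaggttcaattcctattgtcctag

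Reads from mt-Tq and from RNA of the other strand at this place cannot be told apart. The other tRNA genes each held at most 0.0802% (mt-Tp, proline). In the copied stretch mt-Ts1 had 332 UMIs, mt-Tr 20325, mt-Tk 6 and mt-Tg 1.

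The proportions among members moved with the chip pair more than with the cell fraction at P28. mt-Nd1 took 8.10%, 7.28%, 5.43% and 6.40% of mitochondrial UMIs on P28 replicates 1 to 4, but 14.2% and 15.3% on replicates 5 and 6. mt-Cytb went the other way, with 9.78%, 10.8%, 4.88% and 8.14% against 2.72% and 3.15%. mt-Nd2 took 7.32%, 7.70%, 5.32% and 5.67% against 2.84% and 2.71%, and mt-Nd6 1.68%, 1.95%, 1.37% and 1.63% against 0.701% and 0.763%. mt-Co1 took 2.51%, 3.36%, 1.62% and 2.41% against 4.93% and 4.62%, and mt-Nd5 3.17%, 3.80%, 2.65% and 2.62% against 5.90% and 6.01%. Replicates 5 and 6 come from 1 pair of animal names, share a tag of their own in the well-report headers and are 1 CM chip and 1 NCM chip. For these 6 genes both fell outside the range of the other P28 chips on the same side. The part of the tag was not tested. Within classes the picture was alike: in Endothelial-like cells mt-Nd1 took 14.6% on replicate 6 and 6.27% to 7.56% on replicates 1, 2 and 4, and mt-Cytb 3.02% against 8.05% to 10.8%. These values are a description, since the split was noticed in the data.

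**Figure D2:**
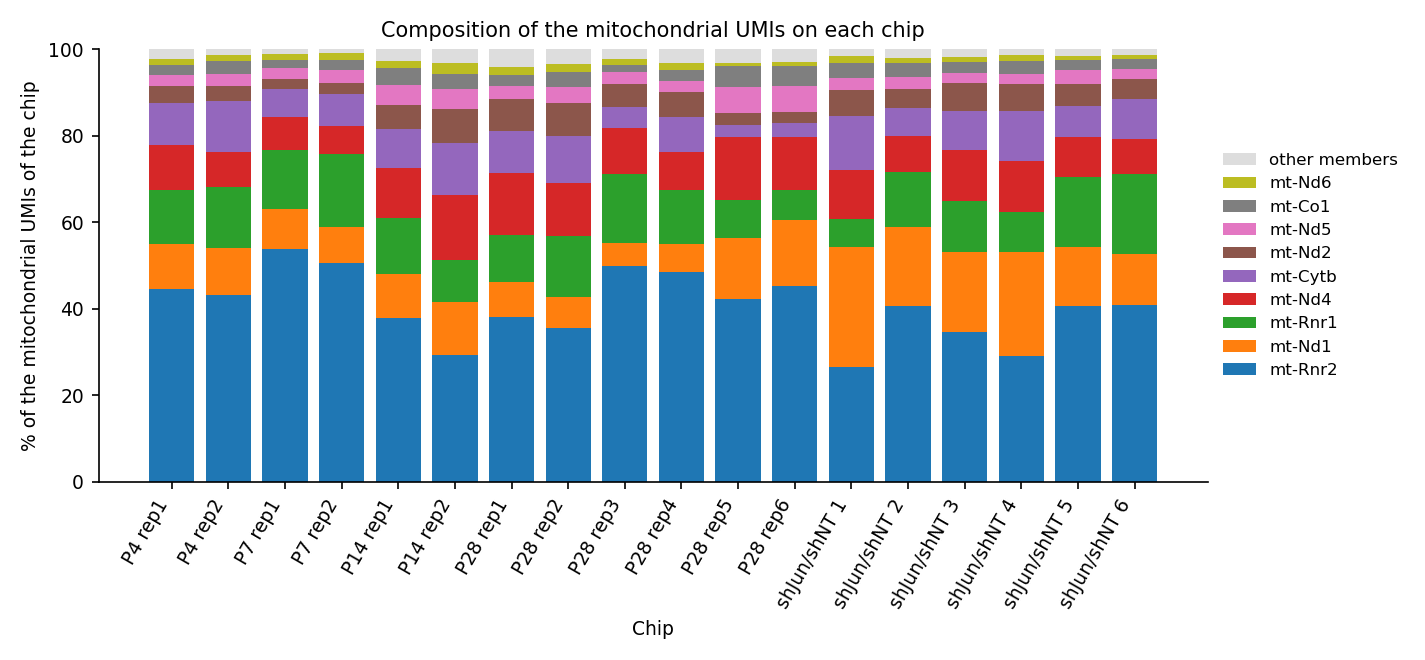
Stacked bars give the percent of each chip's mitochondrial UMIs held by the 9 members with at least 1% of the pooled mitochondrial UMIs; grey is the sum of the other members. mt-Rnr2 spans 26.5% to 53.7%, and P28 replicates 5 and 6 show a wide mt-Nd1 and a narrow mt-Cytb band beside replicates 1 to 4.

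Before P28 the 2 chips of a stage lay close together at P4 and P7 and less so at P14. mt-Rnr2 took 44.5% and 43.1% at P4, 53.7% and 50.7% at P7 and 37.8% and 29.4% at P14, against 35.5% to 49.8% at P28. mt-Rnr1 took 12.5% and 13.9% at P4, then 13.8% and 16.9% at P7, 13.0% and 9.70% at P14 and 6.95% to 16.0% at P28. mt-Nd4 took 10.5% and 8.11%, then 7.56% and 6.45%, then 11.4% and 14.8%, and 8.93% to 14.6% at P28. mt-Nd1 was 10.6% and 11% at P4, 9.22% and 8.23% at P7, and 10.2% and 12.3% at P14. The P7 chips thus held the most mt-Rnr2 and the least mt-Nd4 of the stages before P28. On the mixed P28 chips mt-Nd1 was 27.7%, 18.3%, 18.6%, 24.2%, 13.6% and 11.7% on chips 1 to 6, highest where mt-Rnr2 was lowest (26.5% on chip 1).

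On whole chips the share of all UMIs that came from the members was higher at P7 than at P4 and higher again at P14. It was 23.1% and 23.0% at P4, 53.2% and 51.0% at P7 and 75% and 71.8% at P14. At P28 the chips split: 70.0% and 49.9% on the chips named CM, 24.7% and 21.8% on those named NCM, and 66.6% and 19.3% on the unnamed replicates 3 and 4. Counted as read pairs instead of UMIs the shares were lower but in the same order across P4, P7 and P14: 12.7% and 12.6%, 26.2% and 26.2%, then 41.7% and 31.3%.

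Wells set up without a cell (5 per chip) also held mitochondrial UMIs. They gave 4.60% and 5.64% at P4, then 16.5% and 24.5% at P7, 72.5% and 58.0% at P14 and 13.5% to 54.5% at P28. Their counts were small, from 82.6 to 753 UMIs per well on the wild-type chips against means of 10850 to 107703 UMIs per passing cell. The control-well share was below the share in cells on each of the 12 wild-type chips, and it moved with the stage as the cells did; its part in the cell values was not tested.

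In CM-like cells the share was 20.6% (P4 replicate 1) and 19.9% (replicate 2) at P4, 34.7% on P7 replicate 2, 78.8% and 78.5% at P14, and 72.5%, 67.0% and 50.5% on P28 replicates 1, 3 and 5. The CM-like cluster of P4 was led by Sln, Ttn and Myl7, with Kcnj3, Myl1 and Mybphl among its leading genes. Sln and Myl7 are typical of atrial muscle, whereas the labels name ventricular tissue, sampled near to and away from the auricle. The part of this in the difference between stages was not tested. P7 replicate 1 had only 16 CM-like cells, with 40.7%, and stayed out of the test, which asked for 20 cells; P7 replicate 2 had 23. The P4 and P7 values lay below those of P14 and P28 without overlap. The means were 25.1% ± 8.38 (SD, n = 3) and 69.5% ± 11.7 (SD, n = 5), a difference of 44.4 percentage points, higher in 5 of 5 later chips. The two-sided exact permutation test gave p = 0.018, the smallest these 8 chips allow, and 0.071 after Benjamini-Hochberg adjustment over 4 classes, so the difference did not pass the threshold of 0.05. Summed per animal name over chips instead of per chip (3 names against 6, without the unnamed P28 replicates 3 and 4), the difference was 41.3 points and passed with an adjusted exact p of 0.048.

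At P14 the higher share came with more mitochondrial and fewer other UMIs per CM-like cell than at P4. The median CM-like cell held 5051 and 10752 mitochondrial UMIs at P4 and 47677 and 39211 at P14. Its other UMIs numbered 17761 and 33956 at P4 and 10543 and 8311 at P14. At P28 the mitochondrial median was 16956, 69424 and 5404 on replicates 1, 3 and 5, and the other UMIs 5113, 33387 and 4780, so replicate 5 was no higher in mitochondrial UMIs than P4 replicate 2 and replicate 3 no lower in other UMIs than P4 replicate 1. Cells cut into 3 groups by total UMIs gave like shares at P14 and P28 (72.0% to 80.8% at P14), while at P4 the share fell with the total, from 29.8% to 17.5% on replicate 2.

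In the other classes the later stages were not higher as a whole. Endothelial-like cells gave 23.1% and 25.3% at P4, then 50.9% and 50.5% at P7, 74.1% and 52.0% at P14, and 57.6%, 22%, 20.8% and 24.3% on P28 replicates 1, 2, 4 and 6. Fibroblast-like cells gave 17.9% and 17.8%, then 46.1% and 44.5%, then 77.6% and 47.1%, and at P28 29.9%, 17.7% and 12.5% on replicates 2, 4 and 6. Macrophage-like cells gave 24.3% and 23.6%, 52.5% and 48.0%, 69.4% and 51.9%, and at P28 66.1%, 17.2%, 16.1% and 11.9%. In these 3 classes both P7 chips lay above both P4 chips, and the P28 chips without CM in the name lay below both P7 chips: near P4 in Endothelial-like, on both sides of P4 in Fibroblast-like and below P4 in Macrophage-like cells. The differences between later and earlier chips were 4.37, 5.40 and 1.69 points, with adjusted exact permutation p = 0.895 in each case and overlapping values.

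**Figure D3:**
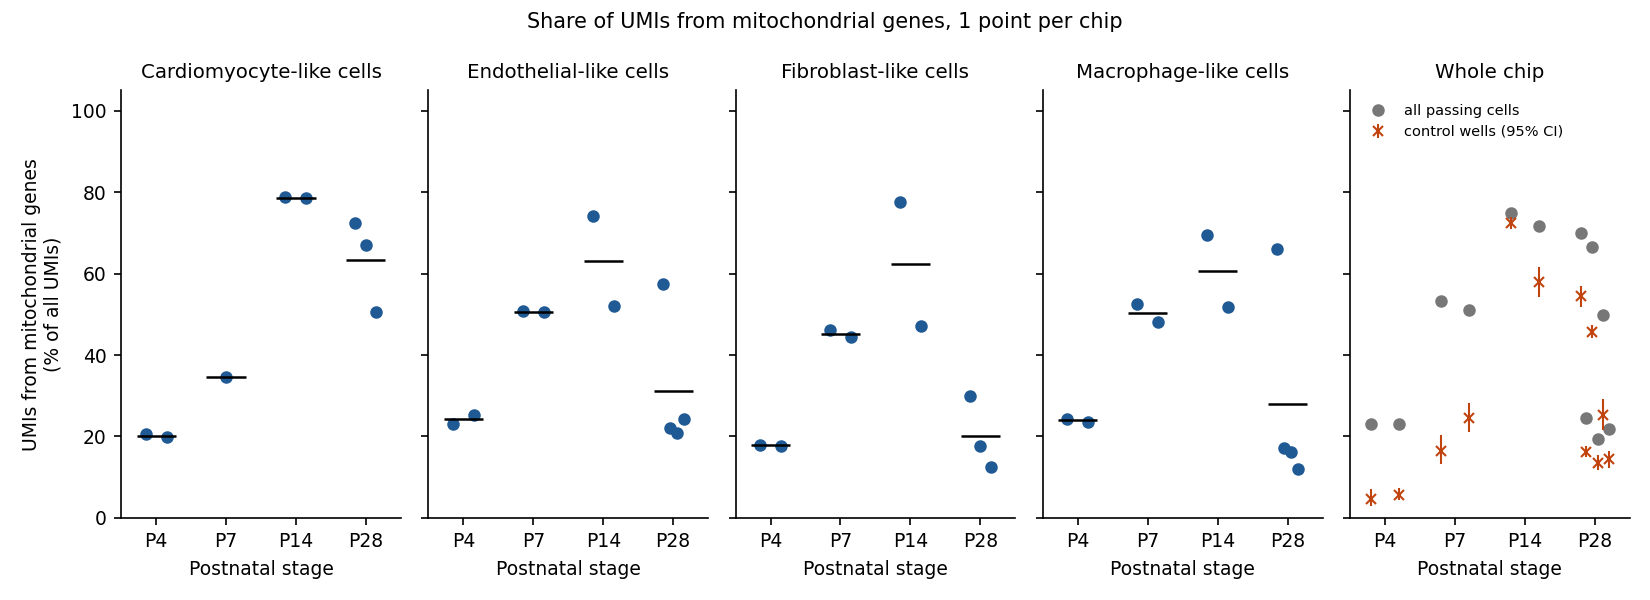
Percent of all UMIs from mitochondrial genes, 1 point per wild-type chip, by stage and class (sums of at least 20 cells; bars are means), with all passing cells and no-cell control wells (95% Clopper-Pearson intervals, counting error only) at the right. CM-like cells lie at a mean of 20.2% at P4, 78.7% at P14 and at 50.5% or above at P28, whereas the other classes are low on most P28 chips. At P28 the CM-like points come from replicates 1, 3 and 5 and those of the other classes mostly from replicates 2, 4 and 6.

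Erythroid-like cells stood apart at the early stages. They held 51.7% and 48.9% at P4 and 69.6% and 65.3% at P7, above CM-, Endothelial-, Fibroblast- and Macrophage-like cells of the same chips. On P14 replicate 1 they held 67.4%, and at P28 35%, 31.5% and 33.0% on replicates 2, 4 and 6. At P4 and P7 they were also the shallowest of these classes, with medians of 6252 and 12095 UMIs at P4 and 18699 and 28828 at P7, and with 3724 to 9111 UMIs outside the members. Their median cell had few UMIs of any kind at P28, with 1143 to 1770 mitochondrial and 1704 to 2858 other UMIs. The P4 cluster of this class was led by the globin genes Hba-a1, Hbb-bs and Hba-a2, with Myl2 also among its leading genes. The P7 cluster was led by Gm22519, Gm26558 and Magohb, and the globin genes Hba-a1, Hbb-bt and Hbb-bs came after Fsd2 and Mmp9. Whether these were intact red cells was not tested.

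CM-like cells were compared with the named other cells of the same chip. Depth was not shared within a chip: the median CM-like cell held 22257 UMIs on P4 replicate 1, against 10461 in Endothelial-like and 11379 in Fibroblast-like cells. At P14, 340 of the 365 and 300 of the 311 CM-like cells sat in wells named CM. At P4 and P7 they held the smaller share: 20.6% against 24.0%, 19.9% against 24.0% and 34.7% against 49.9%. At P14 and P28 they held the larger one: 78.8% against 73.4%, 78.5% against 52.6% and 72.5% against 64.1%. The mean difference over the 6 chips was 2.83 points (SD 14.0), not distinguishable from 0 (exact sign-flip permutation test, p = 0.656, smallest possible 0.031). Split by stage, it was -7.57 points (SD 6.59, n = 3) at P4 and P7 and 13.2 points (SD 11.1, n = 3) at P14 and P28. An exact permutation test of this split, added after the values had been seen, gave p = 0.1, the smallest that 3 against 3 allows. On the 13 protein-coding members alone the mean difference was 6.83 points (exact p = 0.125).

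The name of the loaded fraction went with the share at P28. Chips named CM held 70.0% and 49.9% and chips named NCM 24.7% and 21.8%, a difference of 36.7 points (exact permutation p = 0.333, the smallest that 2 against 2 allows). The 4 chips did not overlap. Counted per animal and chip the difference was 37.7 points, with exact permutation p = 0.029, but the same animals then count on both kinds of chip. The few non-cardiomyocytes on the CM chip replicate 1 carried its high level too: Endothelial-like cells there held 57.6% and Macrophage-like cells 66.1%, against 20.8% to 24.3% and 11.9% to 17.2% on the other P28 chips. The 8 cardiomyocyte markers (among them Myh6, Tnnt2 and Ttn) all had UMIs in these Endothelial-like cells and made 2.09% of their UMIs outside the mitochondrial genes, against 0.113% to 0.331% on replicates 2, 4 and 6. The part of cardiomyocyte RNA in the high share was not tested.

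On the P14 chips both fractions shared a chip, and the order of their shares varied by class. On replicate 1 Fibroblast-like cells held 68.7% in wells named CM and 79.7% in wells named NCM, and Endothelial-like cells 75.9% and 72.1%. On replicate 2 Endothelial-like cells held 55.4% and 44.4%. The proportions among members were split by well name on replicate 1, where the rRNA genes made 42.4% to 48.4% of mitochondrial UMIs in the 5 classes of CM wells and 57.6% to 59.6% in the 6 classes of NCM wells. On replicate 2 the CM-like cells of the CM wells gave 34.5% and those of the NCM wells, only 11 cells, 51.1%, and Endothelial-like cells 50.4% and 58.2%. Fibroblast-like cells there went the other way, with 54.6% in CM wells (17 cells) and 49.7% in NCM wells (19 cells). There was 1 chip per animal here, and these well values were not tested.

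Fold changes of single members were taken from edgeR's quasi-likelihood test over all genes, on UMIs summed per chip and class, scaled by the trimmed mean of M values (TMM). On this scale a fold is relative to the bulk of all genes, and levels are given as UMIs per 1000000 TMM-scaled UMIs, the sum of which can pass 1000000 in a sample. The median over all genes moved by more than 0.1 in 4 stage comparisons (-0.11 and 0.13 in Endothelial-like, -0.22 and 0.29 in Fibroblast-like cells, each from P4 to P14 and from P14 to P28). In CM-like cells, which at P4 were led in part by genes of atrial type, 29 of the 31 members tested rose from P4 to P14 (adjusted p under 0.05), where 2.26% of 16557 genes rose. Their median log2 fold change was 4.56 against -0.07 over all genes. The exceptions were mt-Atp6 and mt-Co2, among the scarce members of the copied stretch.

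The rRNAs rose with the rest: mt-Rnr2 stood at 27108 and 28132 at P4 and 744713 and 590112 at P14, a log2 fold change of 4.59 (SE 0.87, adjusted p = 0.0054). mt-Rnr1 changed by 4.72 (SE 0.85). Of complex I, mt-Nd5 stood at 2425 and 2997 at P4 and 107059 and 105432 at P14, a log2 fold change of 5.29 (SE 0.71, adjusted p = 0.00033), and mt-Nd2 changed by 5.41, mt-Nd6 by 5.18, mt-Nd4 by 4.99 and mt-Nd1 by 4.69. mt-Cytb of complex III rose from 9854 and 13356 to 269217 and 277699, by 4.56 (SE 0.93, adjusted p = 0.0092). mt-Co1 of complex IV rose from 2321 and 3500 to 106451 and 79815, by 5.0 (SE 0.71, adjusted p = 0.00051). The P4 and P14 chips did not overlap for any of these genes. Without P4 replicate 1 the count fell to 12 members and without P4 replicate 2 to 11, so it rested on both P4 chips. The look-alike genes moved alike, Gm13340 by 4.78 and Gm13341 by 4.49.

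From P14 to P28 no member was called in CM-like cells (0 of 31 by edgeR, 21 at an unadjusted p under 0.05, 8 lower by DESeq2), where edgeR called 0.0242% and DESeq2 0.658% of all genes. Without P28 replicate 1 edgeR called 5. All 9 large members had negative values, from -1.0 for mt-Rnr2 to -2.40 for mt-Cytb. The 3 P28 chips spread widely: mt-Cytb stood at 100432, 43946 and 10872 on replicates 1, 3 and 5, against 269217 and 277699 at P14.

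Fibroblast-like cells went up and down again. From P4 to P14, 22 of 30 members rose, where 0.995% of 16788 genes rose, with a median log2 fold change of 4.17 against -0.22 over all genes. mt-Nd1 stood at 11154 and 12252 at P4, then 46667 and 39010 at P7, 321002 and 61347 at P14 and 15220, 8442 and 13433 at P28. P14 replicate 1 was several times above replicate 2 for each of the 9 large members. From P14 to P28, 11 of 30 members fell, where 0.286% of genes fell. They were the 9 members with at least 1% of mitochondrial UMIs, mt-Nd3 and mt-Nd4l, with log2 fold changes from -4.04 for mt-Nd5 to -3.50 for mt-Nd3. The 8 cardiomyocyte markers made 1.15% and 1.30% of the other UMIs of Fibroblast-like cells at P4, then 1.17% and 1.32% at P7, 0.849% and 0.663% at P14 and 0.302%, 0.101% and 0.128% at P28, so they were lower at P28 than at P14, as the members were, and not higher at P14 than at P4; their part in the result was not tested. Without P28 replicate 4 none was called, and without P4 replicate 2 the rise from P4 to P14 was called for 4 members. From P4 to P7 none was called (18 at an unadjusted p under 0.05, 0 by DESeq2), where edgeR called 0.0238% and DESeq2 0.245% of genes; the 9 large members had values from 1.54 to 2.39.

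In Endothelial-like cells 8 of 30 members rose from P4 to P14, where 0.343% of 14884 genes rose: mt-Co1 by 3.93 (SE 0.88), mt-Nd5 by 4.26 (SE 0.92), mt-Nd4l by 4.17 (SE 0.89) and the tRNA genes mt-Ti, mt-Te, mt-Tq, mt-Tp and mt-Tl1 by 3.85 to 5.41. The count was 0 without P14 replicate 1, without P4 replicate 1 or without P4 replicate 2. No member was called from P4 to P7 (7 at an unadjusted p under 0.05, 0 by DESeq2) or from P14 to P28 (22 at an unadjusted p under 0.05, 7 lower by DESeq2), where edgeR called 0% and 0.0336% and DESeq2 0.257% and 1.72% of genes. In these cells the cardiomyocyte markers made 1.38% and 1.68% of the other UMIs at P4 and 1.52% and 1.53% at P14. The stage comparisons of a class share the P4 or P14 chips, so their counts are not independent.

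On whole P28 chips named CM and NCM, 13 of 30 members were higher on the CM chips, where 5.11% of 15687 genes were. The chips differed in what they held: the 8 cardiomyocyte markers made 4.45% and 7.78% of the other UMIs on the CM chips and 0.321% and 0.309% on the NCM chips. CM-like cells were 632 of the 1094 passing cells on replicate 1 and 536 of 703 on replicate 5. Replicates 2 and 6 had no CM-like sum of at least 20 cells. The parts of this make-up and of RNA per cell in these sums were not tested. By edgeR all 13 were tRNA genes, led by mt-Ts2 (log2 fold change 3.06, SE 0.56, adjusted p = 0.0106), and none of the 9 large members passed, with values of 2.79 to 3.32 and SEs of 1.21 to 2.36. DESeq2 called 27 of the 30, the 9 large members among them. Replicates 1 and 2 share a pair of animal names and replicates 5 and 6 another. With these pairs as a block, a fit chosen after seeing the data with 1 residual degree of freedom, edgeR called 16 members, again none of the 9, where 15.5% of all genes were called in either direction. Within the pairs mt-Cytb stood at 144719 against 13330 and at 20132 against 4428, and mt-Nd6 at 24930 against 2404 and at 5191 against 1068, higher on the CM chip both times.

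The nuclear partners of the members were followed as 2 lists. The list of 40 nuclear genes for respiratory chain subunits had 0 called members in CM-like cells from P4 to P14 by edgeR (5 at an unadjusted p under 0.05; DESeq2 called 1 higher and 1 lower), with a median log2 fold change of 0.34. The list of genes for mitochondrial transcription, RNA processing and their regulators (34, of which 33 were tested) had 1 called, Supv3l1, an RNA helicase of the organelle. Supv3l1 stood at 1.8 and 3.96 at P4 and 14.5 and 22 at P14 (log2 fold change 2.65, SE 0.66, adjusted p = 0.0288). In Fibroblast-like cells from P14 to P28, 1 of 40 subunit genes was called (9 at an unadjusted p under 0.05). Cox8b, a complex IV subunit of heart and skeletal muscle, fell from 822 and 492 to 169, 70.7 and 58.2 (log2 fold change -2.72, SE 0.46, adjusted p = 0.0120), in the comparison in which the cardiomyocyte markers were lower too.

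Between the P28 chips named CM and NCM, by contrast, edgeR called 30 of the 40 nuclear subunit genes higher on the CM chips (DESeq2 37), where 5.11% of all genes were, with a median log2 fold change of 3.03 beside 2.88 for the members and -0.07 for all genes. The cardiomyocyte markers, at 4.45% and 7.78% of other UMIs against 0.321% and 0.309%, moved with them, and their part was not tested. Among them were Ndufs1 and Ndufa10 of complex I, with log2 fold changes of 3.39 and 3.13. Of the second list 4 of 33 were higher by edgeR (DESeq2 9), with a median of 1.18. They were Ppargc1a, a coactivator of mitochondrial biogenesis (30.4 and 30.7 against 0.771 and 0.346), the RNA-binding proteins Grsf1 and Lrpprc of the organelle (3.38 and 2.85 on the log2 scale) and Fastk (1.98), the last named after its value was seen. In the other stage and hairpin comparisons no gene of either list was called by edgeR (at most 7 at an unadjusted p under 0.05 in one list, at most 1 by DESeq2).

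**Figure D4:**
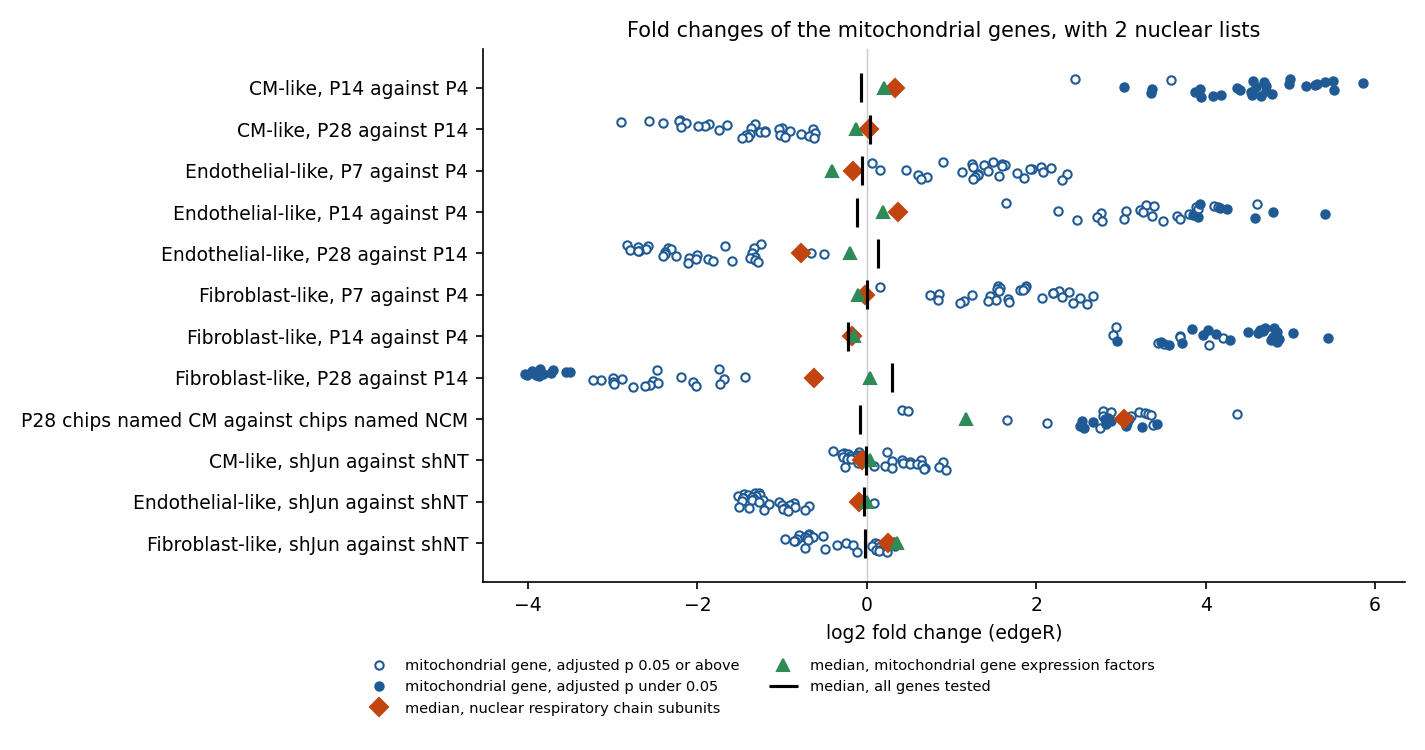
log2 fold changes (edgeR) of the mitochondrial genes tested in each comparison, filled where the adjusted p is under 0.05, with the medians of 2 nuclear lists and of all genes tested. In CM-like cells from P4 to P14 the members centre on 4.56 and the nuclear subunits on 0.34, while between CM and NCM chips both lie near 3.

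The proportion of rRNA among mitochondrial UMIs was lower at P14 and P28 than at P4 and P7 in 2 of the 3 classes tested, and in both of them it was higher at P7 than at P4. In Endothelial-like cells it was 62.9% and 61.4% at P4, then 67.9% and 68.7% at P7, 51.6% and 52.4% at P14 and 50.5% to 61.9% at P28. The P7 values left out the largest endothelium-led cluster, which had no name. The means were 65.2% ± 3.64 (SD, n = 4) at P4 and P7 and 53.4% ± 4.25 (SD, n = 6) later, a fall by 11.8 points (exact permutation p = 0.0095, adjusted over 3 classes 0.0238), with the 2 groups overlapping at P28 replicate 4. In Fibroblast-like cells it fell by 10.4 points, from 64.2% ± 3.67 (SD, n = 4) to 53.8% ± 3.86 (SD, n = 5), without overlap (exact permutation p = 0.0159, adjusted 0.0238). Without either P7 chip the adjusted p was above 0.05 in both classes. In CM-like cells it was 44.5% and 44.6% at P4, 61.2% at P7, 43.6% and 36.0% at P14 and 47.9%, 65.6% and 50.3% at P28, with no distinguishable difference (-1.4 points, exact permutation p = 0.857). CM-like cells thus held less rRNA than Endothelial-, Fibroblast- and Macrophage-like cells on both P4 chips, where those classes lay between 60.8% and 62.9%.

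The hairpin chips compared P28 hearts with and without knockdown of Jun, a transcription factor of the AP-1 family. In CM-like cells Jun itself stood at 13.6 and 16.1 UMIs per 1000000 TMM-scaled UMIs in shJun_1 and shJun_2 and at 29.6 and 34.1 in shNT_1 and shNT_2 (log2 fold change -1.10, SE 0.24, unadjusted p = 0.0034, edgeR adjusted p = 1.0). In Endothelial-like cells it stood at 56.9 and 86.9 against 85 and 64.7. In Fibroblast-like cells the values were higher with shJun, 116 and 126 against 43.3 and 90. Only in CM-like cells were both shJun animals below both shNT animals.

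The mitochondrial share of CM-like cells was 48.5% and 42.6% in the shJun animals and 51.2% and 44.0% in the shNT animals, a difference of -2.07 points with overlapping animals (exact permutation p = 0.667). This test took no account of the animals that shared chips. Within both such pairs the shJun animal was the lower (48.5% against 51.2%, and 42.6% against 44.0%). Of the 824 CM-like cells of shNT_2, 389 came from a cluster whose name rested on a score of 0.47 for the cardiomyocyte markers, while its 10 leading genes, among them Ggnbp1, Cndp2, Ccl21a and Sox7, held none of them. Other CM-like clusters scored below 0.5 as well, again with none of these markers among their leading genes. They held 259 cells of shJun_2 (score 0.42), and 183 (0.42) and 102 (0.48) cells of shNT_1. Without the shNT_2 cluster alone the difference was -3.33 points, and with the score for a name raised to 0.5 it was -0.88. Endothelial-like cells gave 29.2% and 27.7% against 55.4% and 33.5% (-16.0 points). Fibroblast-like cells gave 26.6% and 25.8% against 44.6% and 27.8% (-9.99 points), and Macrophage-like cells 34.0% and 28.9% against 52.7% and 35% (-12.4 points). In these 3 classes both shJun animals lay below both shNT animals, with exact permutation p = 0.333, the smallest that 2 animals against 2 allow.

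The larger of these differences rested on 1 animal on 1 chip. On chip 5, an NCM chip, shNT_1 cells were high in each class: 75.6% in CM-like cells, 55.8% in the Endothelial-like, 44.8% in the Fibroblast-like and 54.9% in the Macrophage-like class, against 28.8%, 22.4% and 27.2% in the last 3 classes of shJun_1 on the same chip. Over all cells of chip 5 shNT_1 held 59.9% and shJun_1 24.8%. On the other NCM chip, 6, shNT_2 held 30.2% and shJun_2 23.7%. On the CM chips the order was not kept: shJun_1 held 53.5% and shNT_1 50.0% on chip 1, 43.5% and 39.5% on chip 2, and shJun_2 39.6% and shNT_2 41.1% on chip 3, 41.6% and 42.6% on chip 4. With the CM chips alone the difference was 0.325 points (CM-like), 1.79 points (Fibroblast-like) and 4.75 points (Macrophage-like), all higher in shJun. The cardiomyocyte markers made 2.22% of the other UMIs of Endothelial-like cells in shNT_1, against 0.524%, 1.4% and 0.339% in shJun_1, shJun_2 and shNT_2. In Fibroblast-like cells the order was the other way, with 1.62% in shNT_1 against 2.69%, 5.64% and 4.32%. The markers' part in the share was not tested. Without shNT_1 the Endothelial-like difference was -5.01 points and the Fibroblast-like one -1.60.

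**Figure D5:**
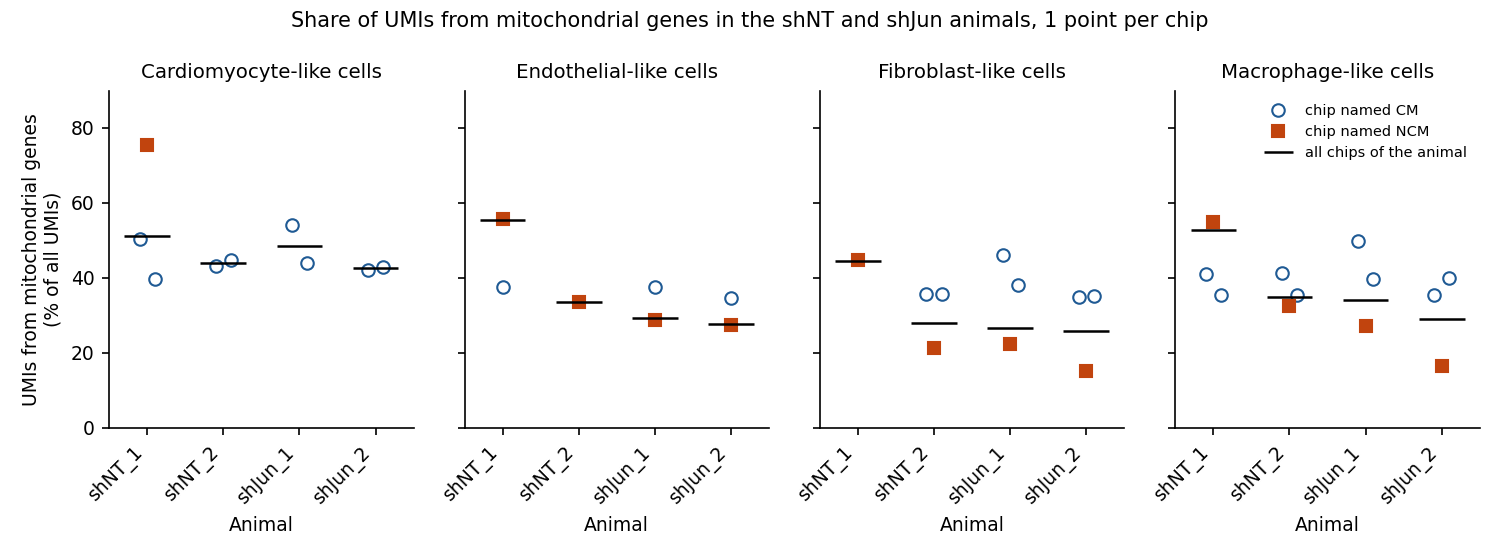
Percent of all UMIs from mitochondrial genes by animal and class, 1 point per chip with at least 10 cells of the class (open circles, CM chips; squares, NCM chips; bars, all chips of the animal). The shNT_1 square of chip 5 is the highest point in the CM-, Endothelial- and Macrophage-like panels, and the open circles of shJun and shNT animals overlap.

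No member passed the test between hairpins. By edgeR 0 of 33 members were called in CM-like, 0 of 30 in Endothelial-like and 0 of 29 in Fibroblast-like cells, where 0% of all genes were called in each. In these classes 0, 7 and 0 members had an unadjusted p under 0.05, and DESeq2 called no member, with 0.0569%, 0.833% and 0.609% of all genes called. In Endothelial-like cells the 9 large members had log2 fold changes from -1.46 (mt-Nd5) to -1.23 (mt-Rnr1), in Fibroblast-like cells from -0.86 (mt-Rnr2) to -0.52 (mt-Nd1) and in CM-like cells from -0.24 (mt-Rnr1) to -0.06 (mt-Nd2). The SEs in CM-like cells were 0.29 to 0.40 on the log2 scale.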

How the data were processed

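The authors processed ICELL8 reads with the Takara pipeline, mapped them to mm10 with STAR 2.5.2b, assigned them to genes with featureCounts (Subread 1.4.6-p1) and deposited raw UMI counts per gene and well, with a report of each well. No value was normalized before deposit. The study itself set mitochondrial genes aside; here they were kept.

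Following the study's filters, cells needed at least 500 genes and a log10 UMI total within 2 SD of a mean. That mean was taken over the cell wells of the stage, or of all mixed chips, so chips of unlike depth shared the same limits. Cells were clustered by stage or animal (Leiden, leidenalg 0.10.2) without the members and their look-alikes, and named from fixed markers where at least 3 were detected in 20% of cells and the score reached 0.2; that threshold was set after clusters and whole-chip shares had been seen. No doublet caller was run, since wells had been selected by imaging for single live cells. UMIs were summed per chip or animal and class (at least 20 cells). Shares were compared by exact permutation tests over these sums. Member fold changes came from edgeR 4.0.16 (R 4.3.3; quasi-likelihood, TMM, filterByExpr, Benjamini-Hochberg over all genes tested) with members kept in the totals; DESeq2 1.42.0 was an alternative. The edgeR step was tested on simulated counts. Sequences were compared with blastn 2.17.0. Members with at least 1% of mitochondrial UMIs are given for every chip, the others by range; of the nuclear lists up to 3 called genes per comparison and direction are named by smallest p, of which 1 is not reported here. Alternatives covered the cell filters, cell means, smaller sums, animals in place of chips, class names at 0.5, low-count filtering, scaling and each chip or animal left out. Members and lists were chosen with earlier results of these data known.

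Total UMIs of passing cells ran from 10826074 to 129747442 per chip, so counting error of the shares was small beside the spread between chips. This does not hold for scarce members such as mt-Co2 (460 UMIs in all) and mt-Atp8 (224). Clopper-Pearson intervals (95%) of the control wells cover counting error only. Fewer organelles and less RNA per organelle cannot be told apart in these counts.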

Additional observations from a re-analysis of the deposited data

Results flagged for a closer look

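In Endothelial-like, Macrophage-like and T cell-like cells of P28, replicate 1 stood far from the other chips of its class, with mitochondrial shares of 57.6%, 66.1% and 68.1%; it is the only CM chip with at least 20 such cells. In Macrophage-like cells the rRNA share of mitochondrial UMIs stood apart on P28 replicate 4, with 62.3%. Chance flags about 1 in 20 groups, and 23 groups were examined.

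The rRNA share of mitochondrial UMIs moved in opposite directions in 2 classes from P4 to P28, by -7.23 points in Fibroblast-like and by 10.1 points in Cardiomyocyte-like cells. The stages did not overlap in either class, and the difference between the classes was not tested. At P28 the Cardiomyocyte-like values came from replicates 1, 3 and 5 and the Fibroblast-like values from replicates 2, 4 and 6. Class and chip therefore cannot be told apart there. The difference between CM-like and other cells of the same chip was negative on each of the 3 P4 and P7 chips (mean -7.57 points) and positive on each of the 3 P14 and P28 chips (mean 13.2 points), with an exact permutation p of 0.1, the smallest possible, for a split chosen after the values had been seen.

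Wells without a cell held mitochondrial UMIs above the floor of 3 counts on each of the 18 chips. Their mitochondrial shares were 4.60% and 5.64% at P4, then 16.5% and 24.5% at P7, 72.5% and 58.0% at P14, and 54.5%, 16.3%, 45.8%, 13.5%, 25.2% and 14.3% on P28 replicates 1 to 6. On mixed chips 1 to 6 they were 51.5%, 44.5%, 30.9%, 44.8%, 43.0% and 13.3%. On mixed chips 1, 2 and 4 the control wells held a larger share than the passing cells (51.2%, 41.6% and 42.1%).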

How the results depend on the processing

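Age, digestion and loading by named fraction cannot be told apart, nor can fraction and batch for single P28 chips. The counts of the members in the stretch copied on chromosome 1 are uncertain, which was not tested. The number of chips and animals limited the shares. At P4 the CM-like share also fell with the total UMIs per cell, from 29.8% to 17.5% on replicate 2. Of the 152 results under alternatives other than leaving out a chip or animal, 124 stayed the same. For shares this meant the same direction and side of the threshold. For counts of called members it meant an equal count or one within 1.5-fold. The CM-like difference was 41.3 points per animal name (now past the threshold), and the CM against NCM chip difference 37.7 per animal and chip (also past it, with the same animals on both kinds of chip). The later-minus-earlier share turned to -0.34 in Fibroblast-like cells with at least 1000 genes per cell, and in Macrophage-like cells to -1.75 as a mean of cells and -2.54 per animal. On the CM chips alone, a setting chosen after seeing the data, the shJun difference was 0.325 (CM-like), 1.79 (Fibroblast-like) and 4.75 (Macrophage-like). Counts of called members moved over 1.5-fold as follows; the cause was not tested. With DESeq2 they were 8 (CM-like, P14 to P28), 25 and 7 (Endothelial-like, P4 to P14 and P14 to P28), 18 (Fibroblast-like, P14 to P28) and 27 (CM against NCM chips). Without the low-count filter they were 9, then 7, 23 and 17 (Endothelial-like, P4 to P7, P4 to P14, P14 to P28), 12 and 22 (Fibroblast-like, P4 to P7 and P14 to P28) and 9 (Endothelial-like, hairpins). At 1000 genes they were 5 (Endothelial-like, P4 to P14) and 4 (Fibroblast-like, P14 to P28); with names at 0.5, 21 and 16 (Endothelial-like, P4 to P14 and P14 to P28); per animal, 15 and 13 for these, and 9 and 6 (Fibroblast-like, P4 to P14 and P14 to P28). Across these settings 0% to 15.5% of all genes were called.

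Leaving out 1 chip at a time gave later-minus-earlier shares of 41.8 to 49.2 points (CM-like), -2.09 to 8.85 (Endothelial-like), -4.76 to 11.5 (Fibroblast-like) and -4.44 to 7.06 (Macrophage-like), CM-like minus other cells of -1.78 to 6.43, and CM minus NCM chips of 26.7 to 46.8. The rRNA differences were -5.63 to 4.15, -13.5 to -10.6 and -11.8 to -9.24 (CM-, Endothelial-, Fibroblast-like). Leaving out 1 animal gave shJun differences of -5.67 to 1.53, -27.0 to -5.01, -18.4 to -1.60 and -21.3 to -3.54 (CM-, Endothelial-, Fibroblast-, Macrophage-like). Called members ranged from 11 to 29 and 0 to 5 (CM-like, P4 to P14 and P14 to P28), 0 to 21 and 0 to 16 (Endothelial-like), 4 to 28 and 0 to 22 (Fibroblast-like) and 7 to 20 (chips; 7 without P28 replicate 2 or 6, 20 without replicate 5), and were 0 throughout for P4 to P7 and for the hairpins. Endothelial-like calls were 21 and 16 without P28 replicate 1, and Fibroblast-like falls 22 without P14 replicate 2. With the hairpin number as a replicate block the shJun differences were the same (-2.07, -16.0, -9.99 and -12.4 points; exact p = 0.5 each, the smallest possible) and 0 members were called; the numbers follow the shared chips. With the 2 pairs of P28 chips as a replicate block, chosen after seeing the data, 16 members were called between CM and NCM chips.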

Other observations

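Classes found on fewer chips followed the stage pattern of their chips. Mural-like cells, led by genes of pericytes and smooth muscle, held 19.6% and 23.4% mitochondrial UMIs at P4, 52.3% and 49.8% at P7 and 75.6% on P14 replicate 1. T cell-like cells of P28 held 22.9%, 22% and 20.6% on replicates 2, 4 and 6, and Granulocyte-like cells 21.8%, 15.7% and 18.9% on the same chips. Erythroid-like cells, which had the highest mitochondrial share at P4, held 16.4% on mixed chip 5, below the 49.3% of the whole chip, and 31.7% on mixed chip 6, above its 27.3%. These values were not tested.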
